A study of Mus musculus with 6 samples.

Results

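The genes described here are 10 members of the machinery that halts the cell cycle: the CDK inhibitors Cdkn1a, Cdkn1b, Cdkn2a, Cdkn2c and Cdkn2d, the transcription factor p53 (Trp53) and its inhibitor Mdm2, and the RB pocket proteins Rb1, Rbl1 and Rbl2. They were chosen by name and are 10 of the 22706 genes in the deposited table, and all 10 passed the filter on low values. RNA-seq was performed on muscle stem cells (MuSCs), the cells that rebuild skeletal muscle, sorted freshly from enzymatically digested limb and trunk muscle of control (wild type) mice, of mdx mice (C57BL/10ScSn-Dmdmdx/J), whose dystrophin gene carries a mutation, and of Sirt6mKO/mdx mice, with 2 libraries per group. Sirt6mKO/mdx mice carry the mdx mutation, a floxed Sirt6 gene lacking exons 4 to 6 after recombination, the Pax7-ICN Cre, which is active without induction wherever the Pax7 promoter is or has been on, and a ROSA26-YFP reporter. All strains were kept on a C57BL/6 background, and the study describes males of 8 to 20 weeks without an age for each library. The question asked by the design is how dystrophic muscle changes MuSCs and what the loss of the histone deacetylase SIRT6 changes on top of it.

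In the textbook circuit, mitogens raise D-type cyclins, whose kinases CDK4 and CDK6 phosphorylate the pocket proteins RB1, p107 (encoded by Rbl1) and p130 (Rbl2). Once phosphorylated, these release E2F transcription factors, and genes for DNA replication are switched on. INK4 proteins (p16 and p19ARF from the Cdkn2a locus, with p16 the INK4 protein, p18 from Cdkn2c and p19 from Cdkn2d) and CIP/KIP proteins (p21 from Cdkn1a and p27 from Cdkn1b) hold this step back. p53 turns on Cdkn1a and Mdm2 after stress or DNA damage, MDM2 marks p53 for destruction, and p19ARF restrains MDM2. In resting MuSCs, p130 with the DREAM complex keeps cell cycle genes silent, and p27 and p21 support the resting state.

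Values are normalized read counts, that is, reads per gene divided by a size factor of the library and rounded by the authors. The libraries held 4397632 to 9745218 approximate reads. A gene was called when its limma test over all 15915 genes with a mean of at least 5 gave a Benjamini-Hochberg adjusted p of at most 0.05 and an absolute log2 fold change of at least 1, on the scale of log2(value + 1). As a background, calls upward and downward made up 6.89% and 7.34% of all tested genes in mdx against control (median log2 fold change 0.00), 5.62% and 2.54% in Sirt6mKO/mdx against mdx (median 0.02), and 5.19% and 2.68% in Sirt6mKO/mdx against control (median 0.01), and counts of called genes in the lists stand beside these shares. Sirt6 itself was at 41 and 32 in control MuSCs, 33 and 40 in mdx MuSCs and 37 and 30 in MuSCs labelled Sirt6mKO/mdx, a log2 fold change of -0.12 against mdx (SE 0.50, adjusted p 0.912). Counts per gene include the parts of the transcript outside exons 4 to 6, so this value does not check the deletion, and every direction for this group rests on its label. The MuSC marker Pax7 was at 2167 to 3236 in the 6 libraries. Of 11 MuSC markers, Sdc4 was called lower in mdx (-2.69) and in Sirt6mKO/mdx (-1.31) than in control and higher in Sirt6mKO/mdx than in mdx (1.37), Heyl was called lower in Sirt6mKO/mdx than in control (-1.04), and 9 were not called in any comparison. Markers of cell types that the sort depletes had summed values of 427 to 921 for 8 endothelial, 98 to 203 for 8 leukocyte and 20887 to 39032 for 8 fibro-adipogenic genes, the last of cells that carry the depleted surface protein Sca1. Erythroid genes, 5 in number, summed to 7 to 91. Xist, the RNA of the inactive X chromosome in females, was at 16772 and 12950 in control and at 7 to 34 in the other 4 libraries, while the Y-linked Ddx3y was at 3 and 8 in control and at 1024 to 1767 elsewhere. The control libraries therefore go against the described use of males, and in every comparison with control, sex and group cannot be told apart. The same 2 mdx libraries, or the same 2 control libraries, serve in more than 1 comparison, so the comparisons are given side by side and not as independent results.

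Promoters of the 4 members that were called between Sirt6mKO/mdx and mdx (8.17% of all genes tested were called there) are shown because these members moved in opposite directions, Rbl1 down and the others up. They are RefSeq entries on GRCm38.p6, 250 bases before to 50 bases after an annotated start, 5′ to 3′ on the strand of the gene. Capitals mark motif matches: the p53 half-site in Cdkn1a and Cdkn2d and an E2F core in Cdkn2c and Rbl1. Cdkn1a is shown at its upstream start (chr17:29090729-29091028, plus strand), Cdkn2c at chr4:109666707-109667006 (minus strand), Cdkn2d at chr9:21291160-21291459 (minus strand) and Rbl1 at chr2:157204485-157204784 (minus strand).
Cdkn1a promoter: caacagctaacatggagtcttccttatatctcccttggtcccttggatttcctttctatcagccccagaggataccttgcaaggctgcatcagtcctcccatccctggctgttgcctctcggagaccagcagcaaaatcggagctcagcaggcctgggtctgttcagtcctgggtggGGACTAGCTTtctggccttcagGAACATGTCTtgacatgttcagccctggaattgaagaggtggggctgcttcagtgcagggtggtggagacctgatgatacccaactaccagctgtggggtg
Cdkn2c promoter: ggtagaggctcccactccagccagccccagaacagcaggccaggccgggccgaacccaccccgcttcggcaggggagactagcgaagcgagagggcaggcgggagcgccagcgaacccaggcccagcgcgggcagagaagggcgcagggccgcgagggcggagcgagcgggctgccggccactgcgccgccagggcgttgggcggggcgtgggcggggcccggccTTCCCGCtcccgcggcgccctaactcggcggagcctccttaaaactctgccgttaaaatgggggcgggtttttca
Cdkn2d promoter: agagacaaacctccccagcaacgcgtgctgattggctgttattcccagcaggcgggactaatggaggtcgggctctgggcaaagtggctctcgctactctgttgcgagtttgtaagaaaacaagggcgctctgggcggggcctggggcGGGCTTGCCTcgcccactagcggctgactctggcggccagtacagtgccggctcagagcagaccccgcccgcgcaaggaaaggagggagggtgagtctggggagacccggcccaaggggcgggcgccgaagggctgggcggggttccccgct
Rbl1 promoter: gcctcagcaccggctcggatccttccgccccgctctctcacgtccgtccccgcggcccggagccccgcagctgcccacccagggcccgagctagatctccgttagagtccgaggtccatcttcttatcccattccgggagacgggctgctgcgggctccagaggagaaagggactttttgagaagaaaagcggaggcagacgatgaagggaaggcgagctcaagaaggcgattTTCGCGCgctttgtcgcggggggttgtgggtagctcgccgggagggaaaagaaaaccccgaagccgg

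The motifs searched, on both strands, were the E2F core in the spellings TTCCCGC (found in Cdkn2c and Cdkn2a), TTGGCGC (not found in the members), TTCGCGC (found in Rbl1) and TTGCCGC (not found), the cell cycle homology region CHR, which reads TTTGAA, and the p53 half-site. Matches in the members did not overlap each other. RefSeq held 12 promoter entries for 9 members, all but Rb1. An E2F core was present in 9.57%, a CHR in 17.9% and a p53 half-site in 8.36% of all 32851 promoters of this length. A single match is thus not particular to the members, and their share of matches was not tested against these. The Cdkn1a entry at the upstream start carried half-sites beginning at -73 and -51 relative to that start. The second of these, GAACATGTCT, lies where a distal p53 response element of the p21 gene is known. No motif was found at the other Cdkn1a start (chr17:29093519-29093818), which lies downstream of it, at the other start of Cdkn2c (chr4:109665323-109665622) or at the proximal start of Cdkn2a (chr4:89282143-89282442). The E2F core in Rbl1 began at -17, that in Cdkn2c at -25, and another, TTCCCGC at -98, lay in the entry of the distal Cdkn2a start (chr4:89294570-89294869). Single p53 half-sites stood at -102 in Cdkn2d, -75 in Trp53 and -186 in Mdm2, and a CHR at -201 in Rbl2. These matches are letters in a window, and no binding was measured here.

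Cdkn1a (ENSMUSG00000023067, chromosome 17, 29090979 to 29100722), which encodes the p53-inducible inhibitor p21, was lowest in mdx. Its normalized read count was 952 and 531 in control MuSCs, 206 and 178 in mdx MuSCs and 449 and 413 in Sirt6mKO/mdx MuSCs. The 3 groups did not overlap, with control highest and Sirt6mKO/mdx in between. Its log2 fold change was -1.89 in mdx against control (SE 0.29, adjusted p 0.000422), which is 3.70-fold lower. In Sirt6mKO/mdx it was 1.16 against mdx (SE 0.29, adjusted p 0.0208), or 2.24-fold higher, but 0.54 and not called with all libraries scaled to equal totals (adjusted p 0.202). It was -0.72 against control (95% interval -1.33 to -0.11, adjusted p 0.136), which was not called but passed without control replicate 2 (-1.14, adjusted p 0.0471) and with equal totals (-1.33, adjusted p 0.00566). The fall in mdx was called with any 1 library left out but not with one prior variance for all genes (adjusted p 0.0599). The call in Sirt6mKO/mdx against mdx was lost whichever of the 4 mdx and Sirt6mKO/mdx libraries was left out, with no minimum mean (adjusted p 0.134), with one prior variance (adjusted p 0.193) and with values centred along GC content (0.96, under the smallest change called).

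Genes induced within minutes of stress, among them those known to respond to the enzymatic dissociation of muscle, moved with Cdkn1a. Of 27 such genes, 25 were called lower in mdx than in control (median log2 fold change -2.58) and 26 were called higher in Sirt6mKO/mdx than in mdx (median 2.44), against a median near 0 over all genes (0.00 and 0.02). Their summed value was 242383 and 282264 in control MuSCs, 30959 and 38471 in mdx MuSCs and 178749 and 184464 in Sirt6mKO/mdx MuSCs. Fos, for example, was at 10775 and 14930, at 1654 and 1921, and at 8993 and 10412. Sdc4, which encodes a heparan sulfate proteoglycan of the MuSC surface, had the same order as Cdkn1a (7692 and 6224, 1100 and 1049, 2753 and 2822). The summed values of endothelial markers were ordered alike, at 921 and 816, at 427 and 448, and at 629 and 648. Most of that sum was Tek (669 and 631, 379 and 348, 503 and 469). The median over the endothelial markers did not keep this order (11 and 18, 3 and 12, 15 and 10), and there the groups overlapped. Of 8 such genes 6 were tested, 2 were called lower in mdx than in control (median -1.43) and none was called in Sirt6mKO/mdx against mdx (median 0.99, 3 at an unadjusted p under 0.05 in limma). Whether this response or such cells have a part in the level of Cdkn1a was not tested.

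Cdkn1b (ENSMUSG00000003031, chromosome 6, 134920401 to 134925513), the gene of p27, was not called in any comparison. Its values were 453 and 523 in control MuSCs, 634 and 459 in mdx MuSCs and 619 and 771 in Sirt6mKO/mdx MuSCs. The mdx libraries overlapped with both other groups, while control lay below Sirt6mKO/mdx. The 95% intervals of its log2 fold change ran from -0.40 to 0.69 in mdx against control, from -0.19 to 0.90 in Sirt6mKO/mdx against mdx and from -0.04 to 1.05 against control.

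Among 6 genes of p27 turnover, 3 were called higher in mdx than in control (median 0.93, beside 0.00 and 6.89% called higher over all genes). They were Cops5, which encodes a subunit of the COP9 signalosome (log2 fold change 1.58, adjusted p 0.00272), and Skp1a (1.03) and Cul1 (1.01), which encode subunits of the SCF ubiquitin ligase. Skp2, the subunit that recognizes phosphorylated p27, was at 128 and 147 in control MuSCs, 240 and 258 in mdx MuSCs and 88 and 110 in Sirt6mKO/mdx MuSCs. It was called lower in Sirt6mKO/mdx than in mdx (-1.33, SE 0.30, adjusted p 0.0121). In Sirt6mKO/mdx against control, 2 of the 6 were called higher, Skp1a (1.09, adjusted p 0.0188) and Cops5 (1.07, adjusted p 0.0397), beside 5.19% of all genes.

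The Cdkn2a row (ENSMUSG00000044303, chromosome 4, 89274471 to 89294653) counts the transcripts of both p16 and p19ARF, which cannot be separated at the gene level. Its values were 2 and 0 in control MuSCs, 70 and 13 in mdx MuSCs and 26 and 9 in Sirt6mKO/mdx MuSCs. All 4 mdx and Sirt6mKO/mdx libraries lay above both control libraries, and the mdx and Sirt6mKO/mdx libraries overlapped. In approximate reads, 1 was found over both control libraries, 124 over mdx and 22 over Sirt6mKO/mdx, and mdx replicate 1 held 107 of the 124. Scaled by the size factors, the ratio of mdx to control was 86.4 with an exact 95% counting interval of 15.2 to 3438, and that of Sirt6mKO/mdx to control was 36.4 (5.89 to 1504), and that of Sirt6mKO/mdx to mdx was 0.422 (0.255 to 0.668). These intervals cover counting error alone, not the spread between libraries. Of 8 markers of fibro-adipogenic progenitors, 4 (Pdgfra, Ly6a, Dcn and Lum) were likewise highest in replicate 1 of both mdx-bearing groups and 4 were not. Ly6a was at 3 and 9 in control MuSCs, 79 and 21 in mdx MuSCs and 65 and 15 in Sirt6mKO/mdx MuSCs, and Col3a1, a collagen gene that makes up most of the sum of the list, at 16458 and 22798, at 30817 and 26928, and at 15579 and 24533. The part of such cells in the value of Cdkn2a was not tested. The fitted log2 fold change, which depends on the added 1, was 4.19 in mdx against control (SE 1.01, adjusted p 0.0108) and 3.25 in Sirt6mKO/mdx against control (adjusted p 0.0584). Against mdx it was -0.94 (95% interval -3.08 to 1.20, adjusted p 0.609), and without mdx replicate 1 it was 0.23. The call in mdx against control was lost without control replicate 2 (3.39, adjusted p 0.0555) and without mdx replicate 1 (3.02, adjusted p 0.243), with voom weights (adjusted p 0.0610), with no minimum mean (adjusted p 0.0823) and with one prior variance for all genes (adjusted p 0.0791), while without control replicate 1 the value in Sirt6mKO/mdx was called (4.04, adjusted p 0.0477).

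The remaining INK4 members stood out in Sirt6mKO/mdx. Cdkn2c (ENSMUSG00000028551, chromosome 4, 109660876 to 109667189) was at 142 and 99 in control MuSCs, 158 and 83 in mdx MuSCs and 271 and 242 in Sirt6mKO/mdx MuSCs. Cdkn2d (ENSMUSG00000096472, chromosome 9, 21288463 to 21291209) was at 48 and 35, at 40 and 40, and at 110 and 128. For both genes the Sirt6mKO/mdx libraries were the highest pair, while control and mdx overlapped. Among markers of other cells, the summed leukocyte genes were also highest there (124 and 139, 109 and 98, 203 and 170). All 5 tested were higher than in mdx (median 0.54), while against control 2 were higher and 3 lower (median -0.10). The globin gene Hbb-bs, which has a near-identical copy that could share its reads, was highest there too (8 and 5, 2 and 2, 17 and 54). The summed smooth muscle and pericyte genes were lowest (9064 and 8238, 7202 and 7944, 4491 and 4685). Most of that sum was Notch3 (7831 and 6184, 4041 and 5382, 3049 and 2789). Gene by gene, 4 of the 7 were higher and 3 lower than in mdx (median 0.52), and likewise against control (median 0.05). The part of such cells in the values of Cdkn2c and Cdkn2d was not tested.

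Against mdx, the log2 fold change of Cdkn2d in Sirt6mKO/mdx was 1.55 (SE 0.41, adjusted p 0.0313), 2.92-fold higher, and that of Cdkn2c was 1.15 (SE 0.35, adjusted p 0.0496), 2.23-fold higher. The latter sat at the threshold, and both calls were lost whichever mdx or Sirt6mKO/mdx library was left out and with libraries scaled to equal totals (0.93 for Cdkn2d and 0.53 for Cdkn2c). Against control, Cdkn2d was called at 1.51 (SE 0.41, adjusted p 0.0332) and Cdkn2c was not, at 1.10 (adjusted p 0.0607). The call of Cdkn2d against control was lost on leaving out control replicate 2 (1.29) or any mdx library (adjusted p 0.0585 and 0.0586) or Sirt6mKO/mdx library (adjusted p 0.159 and 0.261), with libraries scaled to equal totals (0.91, adjusted p 0.140) and with only these 2 groups fitted (adjusted p 0.0547). In mdx against control the estimates were -0.05 for Cdkn2c (95% interval -0.79 to 0.69) and -0.03 for Cdkn2d (-0.91 to 0.85).

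Of the 3 other CDK inhibitor genes, Cdkn1c showed the widest range. It encodes p57, another CIP/KIP protein, and was at 57 and 180 in control MuSCs, 1218 and 1072 in mdx MuSCs and 317 and 674 in Sirt6mKO/mdx MuSCs. Its log2 fold change was 3.48 in mdx against control (SE 0.43, adjusted p 7.64e-05), 2.18 in Sirt6mKO/mdx against control (adjusted p 0.00606) and -1.30 in Sirt6mKO/mdx against mdx, which was not called (adjusted p 0.0731). Cdkn3, at 2 and 2, at 14 and 32, and at 8 and 41, was called in mdx against control, and Cdkn2b stayed at 3 to 25 in all libraries with no call.

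Trp53 (ENSMUSG00000059552, chromosome 11, 69580359 to 69591873) was higher in control than in both other groups. It was at 452 and 679 in control MuSCs, 269 and 210 in mdx MuSCs and 207 and 266 in Sirt6mKO/mdx MuSCs, so that the mdx and Sirt6mKO/mdx libraries overlapped and lay below control. Its log2 fold change against control was -1.22 in mdx (SE 0.28, adjusted p 0.00866) and -1.24 in Sirt6mKO/mdx (SE 0.28, adjusted p 0.0141). Between Sirt6mKO/mdx and mdx it was -0.02, with a 95% interval of -0.62 to 0.58, and -0.64 with libraries scaled to equal totals (adjusted p 0.166). The call in mdx was lost without control replicate 2 (-0.92, adjusted p 0.0681) or mdx replicate 2 (-1.04, adjusted p 0.0937), with values centred along GC content (-0.99, under the smallest change called), with no minimum mean (adjusted p 0.0649) and with one prior variance for all genes (adjusted p 0.107), and that in Sirt6mKO/mdx without control replicate 2 (-0.94) or either Sirt6mKO/mdx library (-1.06 and -1.42).

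Mdm2 (ENSMUSG00000020184, chromosome 10, 117688888 to 117710758), the ubiquitin ligase of p53, was not called in any comparison. It was at 350 and 433 in control MuSCs, 227 and 264 in mdx MuSCs and 358 and 357 in Sirt6mKO/mdx MuSCs. Both mdx libraries lay below the other 4. The log2 fold change was -0.67 in mdx against control (95% interval -1.20 to -0.13, unadjusted p 0.0184 from limma, adjusted p 0.0845) and 0.54 in Sirt6mKO/mdx against mdx (0.01 to 1.08, adjusted p 0.194).

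None of 16 genes of the p53 family and its regulators was called by limma in any comparison, and the medians were -0.17 in mdx against control, 0.22 in Sirt6mKO/mdx against mdx and -0.26 in Sirt6mKO/mdx against control. An unadjusted p under 0.05 was reached by 7 of these genes in mdx against control, by 3 in Sirt6mKO/mdx against mdx and by 2 in Sirt6mKO/mdx against control. Mdm4, the partner of MDM2, was at 527 to 662 in the 6 libraries. The kinase genes Atm and Atr, which signal DNA damage to p53, were at 397 to 611 and at 254 to 549.

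Genes that p53 is known to activate did not move in 1 direction. Of 35 listed, 32 were tested, and in mdx against control 3 were called higher and 7 lower, with a median of 0.11 beside 0.00 over all genes. The higher ones were Rps27l (1.87), Phlda3 (1.81) and Ccng1 (1.27). The lower ones included the antiproliferative gene Btg2 (-3.75), the death receptor gene Fas (-3.69) and the stress-response gene Sesn2 (-2.79). Of the same genes, the 7 called in Sirt6mKO/mdx against mdx were all higher (median 0.13 beside 0.02), led by Btg2 (3.79), the polo-like kinase gene Plk3 (2.47) and Gadd45a (2.31).

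Btg2 was at 5489 and 5385 in control MuSCs, 432 and 374 in mdx MuSCs and 4982 and 6248 in Sirt6mKO/mdx MuSCs, with mdx lowest as for Cdkn1a. Phlda3 was at 68 and 98, at 337 and 247, and at 296 and 318, higher in both mdx-bearing groups. The comparison of Sirt6mKO/mdx with control called Phlda3 (1.90), Rps27l (1.69) and Trp53inp1 (1.18) higher and Fas (-1.91) and Ephx1 (-1.49) lower. Bax, Bbc3 and Pmaip1, the p53 targets of the intrinsic death pathway, were not called in any comparison. Pmaip1 was at 74 and 33 in control MuSCs, 14 and 17 in mdx MuSCs and 45 and 43 in Sirt6mKO/mdx MuSCs, a log2 fold change of -1.62 in mdx against control (adjusted p 0.0581) and 1.45 in Sirt6mKO/mdx against mdx (adjusted p 0.116). Bax and Bbc3 were 0.80 (adjusted p 0.147) and 0.99 (adjusted p 0.176) higher on the log2 scale in Sirt6mKO/mdx than in mdx. Several p53 targets, such as Btg2, Plk2 and Plk3, are also known as immediate early genes.

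Rbl1 (ENSMUSG00000027641, chromosome 2, 157145893 to 157204534), which encodes p107, was highest in mdx. It was at 17 and 22 in control MuSCs, 88 and 171 in mdx MuSCs and 29 and 30 in Sirt6mKO/mdx MuSCs. The mdx libraries lay above all others. Its log2 fold change was 2.60 in mdx against control (SE 0.50, adjusted p 0.00248), 6.08-fold higher, and -2.02 in Sirt6mKO/mdx against mdx (SE 0.50, adjusted p 0.0210), 4.06-fold lower. Against control, Sirt6mKO/mdx was 0.58 higher on the log2 scale, with a 95% interval of -0.48 to 1.64 that includes 0, although the libraries did not overlap. The call in mdx against control was lost without mdx replicate 2 (2.13, adjusted p 0.0726), and the call in Sirt6mKO/mdx against mdx was lost whichever mdx or Sirt6mKO/mdx library was left out.

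Rb1 (ENSMUSG00000022105, chromosome 14, 73183673 to 73325822) was at 225 and 150 in control MuSCs, 317 and 323 in mdx MuSCs and 268 and 341 in Sirt6mKO/mdx MuSCs. Control lay below the other 4 libraries. The differences fell short of a call, at 0.80 in mdx against control (95% interval 0.20 to 1.39, adjusted p 0.0648) and 0.72 in Sirt6mKO/mdx against control (0.12 to 1.31, adjusted p 0.132). The first of these was 1.09 without control replicate 1, 0.51 without control replicate 2 and 0.38 with values centred along GC content. The second was 0.11 with libraries scaled to equal totals. Rbl2 (ENSMUSG00000031666, chromosome 8, 91070057 to 91123844), the gene of p130, had the narrowest range among the members in proportion to its level, at 269 and 320, at 304 and 355, and at 285 and 318. Its 3 log2 fold changes lay between -0.13 and 0.16, and all groups overlapped. With libraries scaled to equal totals it was -0.75 in Sirt6mKO/mdx against mdx (adjusted p 0.0896) and -0.57 against control, neither called.

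The counting was not stated to use strand, and genes on the opposite strand overlap exons of 3 members. They are Rcbtb2 and Lpar6 at Rb1 (8.1% and 6.8% of its exonic bases), AC167363.2 at Cdkn1a (7.7%) and Aktip and Gm45464 at Rbl2 (9.2% and 11.8%). Reads there cannot be assigned to 1 of the genes.

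**Figure D1:**
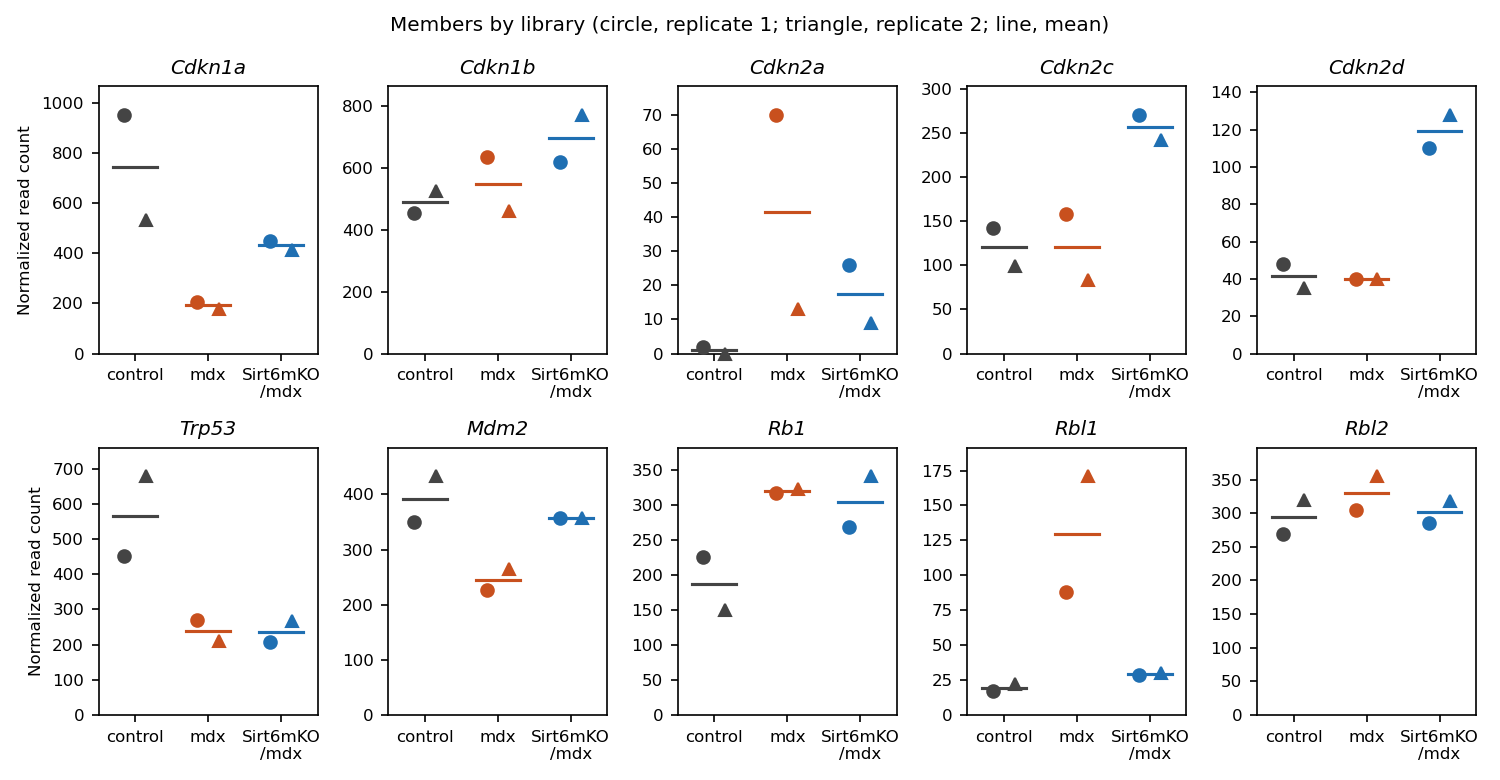
Normalized read counts (vertical axes, linear and starting at 0) of the 10 members in the 2 libraries of each group, with circles for replicate 1, triangles for replicate 2 and a line at the mean. Cdkn1a is lowest and Rbl1 highest in mdx, Cdkn2c and Cdkn2d are highest in Sirt6mKO/mdx (242 and 271, 110 and 128), and Trp53 is highest in control (452 and 679).

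Over the 10 members, 4 were called in mdx against control, 2 higher (Cdkn2a and Rbl1) and 2 lower (Cdkn1a and Trp53). Among all genes tested, 14.2% were called in this comparison (6.89% higher and 7.34% lower). The groups did not overlap for 6 members, against 57% of all genes tested. Relative to mdx, 4 members were called in Sirt6mKO/mdx, 3 higher (Cdkn1a, Cdkn2c and Cdkn2d) and 1 lower (Rbl1), where 8.17% of all genes were called (5.62% higher and 2.54% lower), and 5 members did not overlap (56% of all genes). Relative to control, 1 was called higher in Sirt6mKO/mdx (Cdkn2d) and 1 lower (Trp53), where 7.87% of all genes were called (5.19% higher and 2.68% lower), and 8 did not overlap (51.6%). The median log2 fold change of the members was 0.06, 0.17 and 0.54 in the 3 comparisons. With 10 genes chosen by name, these counts describe the members alone. An exact permutation test of 2 libraries against 2 cannot go below a two-sided p of 0.333, so all calls rest on the spread that limma shares across genes.

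**Figure D2:**
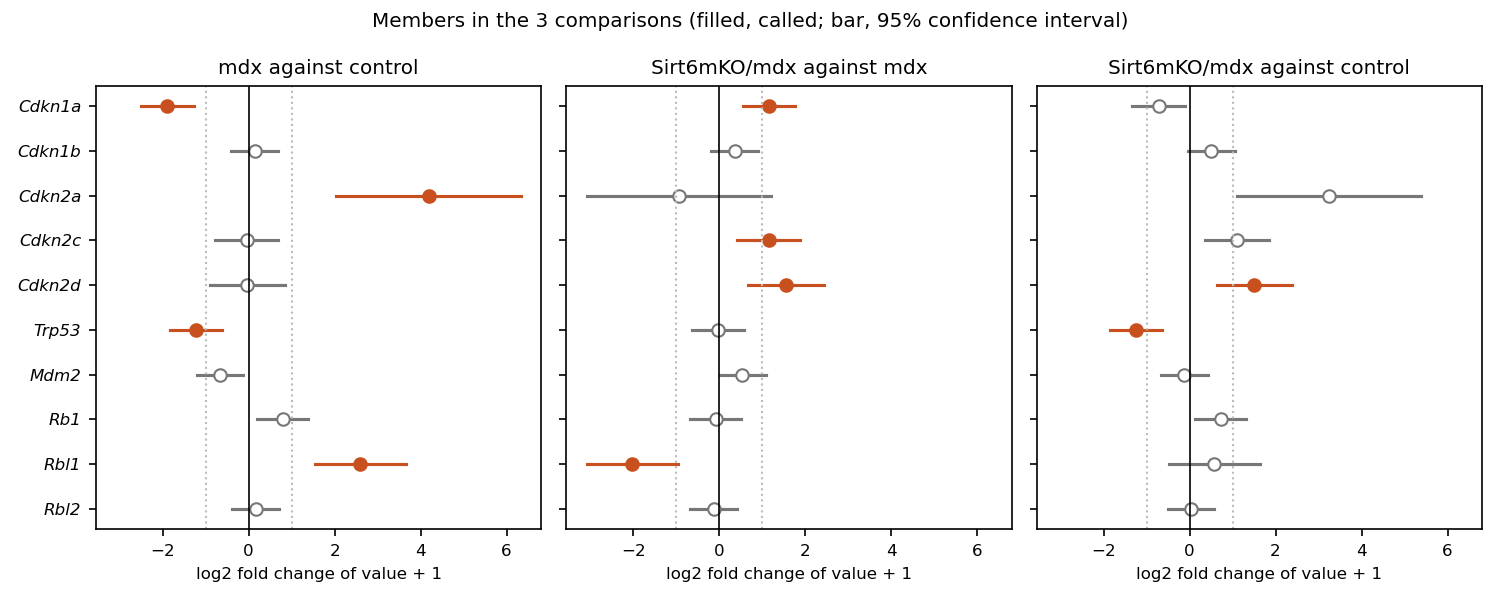
Log2 fold change of value + 1 (horizontal axis) with its 95% confidence interval for each member in the 3 comparisons, with filled symbols for called members and dotted lines at the smallest change that was called. Cdkn1a (-1.89, then 1.16) and Rbl1 (2.60, then -2.02) are called with opposite signs in the first pair of panels, which share the mdx libraries.

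Calls in Sirt6mKO/mdx against mdx were sensitive to the library and to the scaling. With any 1 of the mdx or Sirt6mKO/mdx libraries left out, none of the 10 members was called by limma, although 3 or 4 had an unadjusted p under 0.05, while calls over all genes fell from 1300 to between 203 and 481. The log2 fold changes of the 4 called members kept their sign, at 1.06 to 1.27 for Cdkn1a, 0.69 to 1.61 for Cdkn2c, 1.44 to 1.65 for Cdkn2d and -2.50 to -1.54 for Rbl1. The Sirt6mKO/mdx libraries had 30.0% and 32.6% of their values in 10 genes, against 11.7% to 22.9% elsewhere, and scaling all libraries to equal totals took the median log2 fold change of all genes from 0.02 to -0.58. Under that scaling Rbl1 alone was called, at -2.63, and Cdkn1a, Cdkn2c and Cdkn2d were at 0.54, 0.53 and 0.93. In Sirt6mKO/mdx against control it took the median from 0.01 to -0.58 and the calls over all genes from 826 higher and 427 lower to 455 higher and 2693 lower. There Cdkn1a (-1.33, adjusted p 0.00566) and Cdkn2a (2.84, adjusted p 0.0440) were called with Trp53, and Cdkn2d was not (0.91, adjusted p 0.140). The plot of called members under each setting shows these values.

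**Figure D3:**
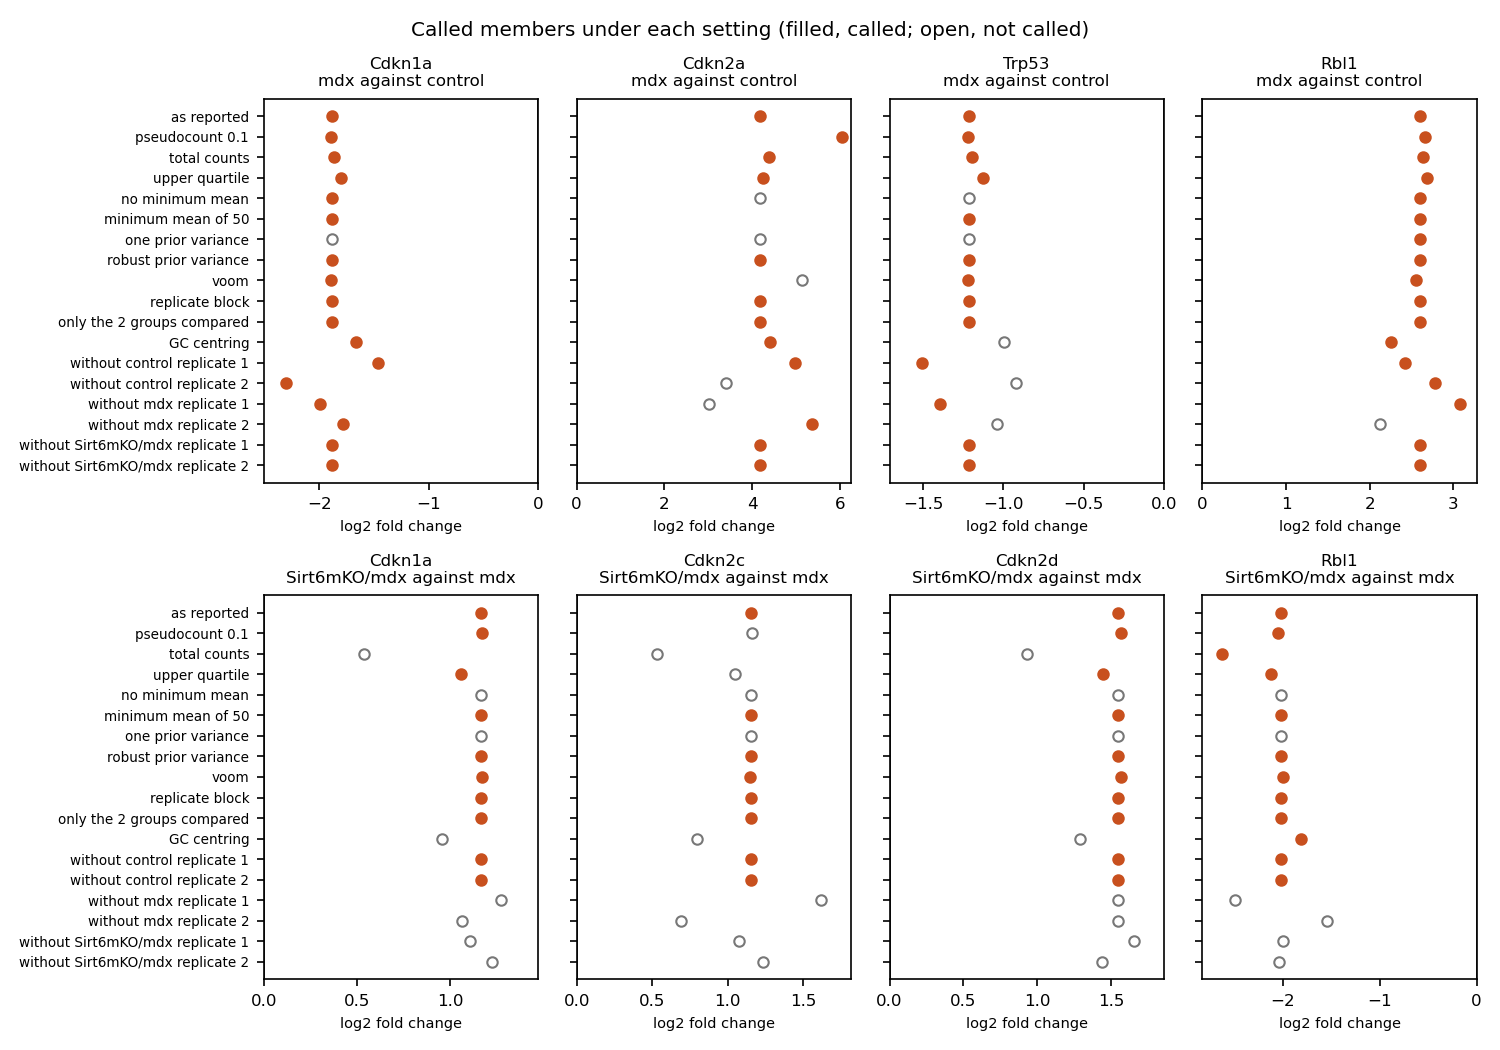
Log2 fold change (horizontal axes, each including 0) of the members called in mdx against control (upper panels) and in Sirt6mKO/mdx against mdx (lower panels) under each setting of the analysis, filled where called. Signs hold in every setting shown, and the lower panels have 0 filled symbols where an mdx or Sirt6mKO/mdx library is left out.

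Levels can be compared between genes per 1000 exonic bases, with the full exonic length as divisor. If reads on bases shared with opposite-strand genes were left out, the levels of Rb1, Cdkn1a and Rbl2 are understated. In control, Cdkn1a led with 209 ± 83.8 (SD, n = 2 here and below), followed by Trp53 with 140 ± 39.7 and Cdkn1b with 107 ± 10.9, and the libraries of neighbours in this order overlapped. Mdm2 (77.0 ± 11.6), Cdkn2c (44.9 ± 11.3), Rbl2 (39.0 ± 4.77), Rb1 (31.2 ± 8.82) and Cdkn2d (26.4 ± 5.84) followed, and from Cdkn2c to Cdkn2d each gene overlapped with the next. Rbl1 (3.25 ± 0.590) and Cdkn2a (0.853 ± 1.21) stood apart at the bottom.

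In mdx, Cdkn1b led with 120 ± 27.2, and its libraries did not overlap with those of the next gene, Trp53 (59.2 ± 10.3). Cdkn1a (54.0 ± 5.57), Rb1 (53.2 ± 0.705), Mdm2 (48.3 ± 5.15), Cdkn2c (44.9 ± 19.7) and Rbl2 (43.6 ± 4.77) formed a close group, in which only Rb1 and Mdm2 did not overlap as neighbours. Cdkn2a (35.4 ± 34.4), Cdkn2d (25.4 in both libraries) and Rbl1 (21.6 ± 9.79) came last and could not be ranked.

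In Sirt6mKO/mdx, Cdkn1b was again at the top with 153 ± 23.6, and Cdkn1a (121 ± 7.17), Cdkn2c (95.5 ± 7.63) and Cdkn2d (75.6 ± 8.09) followed without overlap between neighbours. Mdm2 (70.3 ± 0.139) overlapped with Cdkn2d, and Trp53 (58.5 ± 10.3) with Rb1 (50.6 ± 8.58). Rbl2 (39.9 ± 3.09), Cdkn2a (14.9 ± 10.3) and Rbl1 (4.92 ± 0.118) were the lowest. Among the pocket protein genes, Rbl1 was the lowest in each group, and came closest to Rb1 and Rbl2 in mdx.

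Partners and targets of the pocket proteins were then examined. Of 17 genes of E2F factors and DREAM subunits, E2f8 was called higher in mdx than in control (0 and 1 against 9 and 22) and E2f6, a repressor of the family, was called lower (233 and 282 against 115 and 130, log2 fold change -1.06, adjusted p 0.0210). E2f4, the main partner of p107 and p130, was at 246 and 208, at 140 and 142, and at 152 and 190, with no call. None of these genes was called by limma in the other comparisons, where unadjusted p under 0.05 was reached by 2 genes in Sirt6mKO/mdx against mdx and 4 in Sirt6mKO/mdx against control.

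Among 8 genes of G1 cyclins and their kinases, Ccnd1, the cyclin that drives phosphorylation of the pocket proteins, was at 352 and 851 in control MuSCs, 930 and 1217 in mdx MuSCs and 207 and 251 in Sirt6mKO/mdx MuSCs. It was called lower in Sirt6mKO/mdx than in mdx (-2.22, SE 0.34, adjusted p 0.000937) and than in control (-1.26, adjusted p 0.0315). Its kinase gene Cdk6 was at 42 and 52 in control MuSCs, 141 and 188 in mdx MuSCs and 139 and 160 in Sirt6mKO/mdx MuSCs, and was called higher in both against control (1.78 and 1.65). Ccne2, a cyclin of the G1/S step, was called higher in mdx than in control (1.60, adjusted p 0.0452).

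Of 22 E2F target genes, the 4 called in mdx against control were all higher, with a median of 0.70 beside 0.00 over all genes, including the replication helicase genes Mcm2 (1.90) and Mcm5 (1.55) and the maintenance methylation gene Uhrf1 (1.72). Between Sirt6mKO/mdx and mdx the 3 called were all lower (median -0.64 beside 0.02), namely Mcm5 (-1.94), Mcm3 (-1.41) and Mcm6 (-1.24). None of the 22 was called by limma in Sirt6mKO/mdx against control, 2 had an unadjusted p under 0.05, and the median was 0.07.

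Targets of the DREAM complex that act in G2 and mitosis had the larger medians. Of 20, 9 were called higher in mdx than in control (median 1.93, beside 0.00 and 6.89% called higher over all genes), among them Top2a (2.73), Mki67 (2.71) and Cenpe (2.13). Mki67, a marker of cycling cells, was at 39 and 80 in control MuSCs, 252 and 548 in mdx MuSCs and 99 and 162 in Sirt6mKO/mdx MuSCs. Against mdx, 3 were called lower in Sirt6mKO/mdx, Cenpe (-1.73), Top2a (-1.60) and Mki67 (-1.55), and the median was -0.80, beside 0.02 and 2.54% called lower over all genes. Against control, 1 was called higher in Sirt6mKO/mdx, Bub1, and the median was 1.15. Rbl1 is itself known as an E2F target, and its calls had the same directions as those of these genes. Fewer cycling cells and less RNA per cell cannot be told apart in these bulk samples. Rbl1, Cdkn2a, Ccng1, Rps27l, Phlda3, Cdkn3, Cdk6, Uhrf1, Top2a, Cops5 and Cdk1 are also on a stress response list that the study drew from these libraries, which is no independent evidence of their direction.

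**Figure D4:**
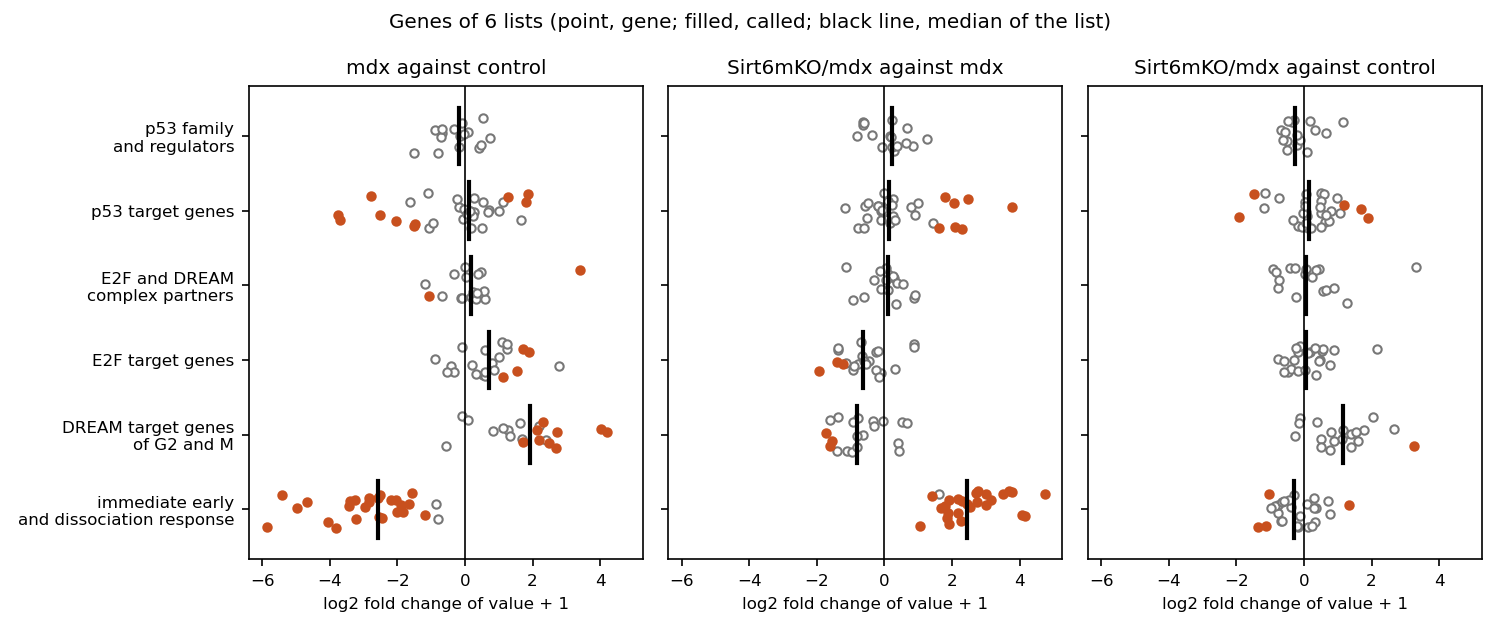
Log2 fold change of value + 1 (horizontal axis) of each tested gene in 6 lists, filled where called, with a black line at the median of the list. E2F targets and DREAM targets lie to the right in mdx against control (medians 0.70 and 1.93) and to the left in Sirt6mKO/mdx against mdx (-0.64 and -0.80), immediate early genes lie the other way (-2.58 and 2.44), and p53 targets are spread to both sides (0.11 and 0.13).

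Further marker lists of other cell types moved with some groups as well. Of 8 myofibre genes, 3 were called lower in mdx than in control (median -1.08) and 2 higher in Sirt6mKO/mdx than in mdx (median 1.02), with summed values of 7506 and 7610 in control MuSCs, 5964 and 2121 in mdx MuSCs and 11164 and 4967 in Sirt6mKO/mdx MuSCs. Of 8 fibro-adipogenic genes, whose cells the depletion of Sca1 should remove, 2 were called higher in mdx than in control and 1 lower in Sirt6mKO/mdx than in mdx, with summed values of 20887 and 27586, of 39032 and 31981, and of 21323 and 28822. Of 7 smooth muscle and pericyte genes, Acta2 was called higher (1.18) and Abcc9 lower (-1.43) in mdx than in control, and Notch3, a receptor that MuSCs also express, was called lower in Sirt6mKO/mdx than in control (-1.25). The macrophage gene Lyz2 was called higher than in control in mdx (3.22) and in Sirt6mKO/mdx (3.75), Cd68 was called lower in mdx than in control (-1.60), and Hbb-bs was called higher in Sirt6mKO/mdx than in mdx (3.39, adjusted p 0.0313). None of the markers in these lists was at 0 in all libraries. The part of such cells in the values of the members was not tested.

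For each called member, the 3 genes with the most similar pattern were searched among those with a mean of at least 50, by Pearson's r of log2(value + 1) over the 6 libraries. For Cdkn1a they were Slc22a5 (0.995), Rela (0.994), the gene of an NF-kB subunit, and Cebpa (0.993). Rela was at 915 and 603 in control MuSCs, 221 and 223 in mdx MuSCs and 475 and 430 in Sirt6mKO/mdx MuSCs. For Rbl1 they were Arpc5l (0.998), Sept9 (0.997) and Apbb2 (0.992), and for Trp53 they were Sap130 (0.997), Slc3a2 (0.995) and Larp4 (0.993).

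Cdkn2d was most like the replication histone gene Hist1h3e (0.998), at 42 and 29, at 33 and 36, and at 102 and 114, then Nadk2 and Trappc6a (0.987 each). Cdkn2c was most like Imp3 and Bud31 (0.993 each) and the small nucleolar RNA Snord83b (0.987), and Cdkn2a like Eef2k (0.995), Phospho2 (0.993) and Spcs2 (0.991). With 9665 or 9666 genes searched over 6 libraries of 3 groups, these are the highest values of a search and are given as descriptions. Between members the r was -0.95 for Rbl1 with Cdkn1a, 0.88 for Cdkn2d with Cdkn2c and -0.89 for Rb1 with Trp53, over the same 6 libraries.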

How the data were processed

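Per the labels and the study's methods, total RNA of sorted MuSCs was depleted of ribosomal RNA and read on an Ion Torrent sequencer. Trimming by the authors used Reaper, alignment to GRCm38 used STAR (2.4.2a in the submitters' processing notes, another version in the study's methods) and counting per gene used featureCounts (1.4.5-p1), leaving out reads on several genes or places. Whether strand was used is not given in the sources used here. The deposited values are whole numbers that the authors obtained by dividing counts by a size factor per library and rounding, so their unit is a score (a normalized read count) and no count test was run. Size factors, recovered from how often each whole number occurred among the values of a library, gave the approximate reads.

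limma 3.58.1 in R 4.3.3 was fitted to log2(value + 1) of all 6 libraries without a block, the prior variance following the mean. The 15915 genes with a mean of at least 5 were tested, two-sided, and p-values were adjusted over all of them (Benjamini-Hochberg). Adjusted p-values in the text come from this fit unless another setting is named. A fold change on this scale understates changes of low genes. Replicates are described by the study as biological, and with 2 per group precision is limited. Exonic lengths come from GENCODE mouse release M21.

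The members and the gene lists were chosen with earlier results of these data known. Named genes were all 10 members, up to 3 called genes per direction, list and comparison with a mean of at least 50, and the 3 genes most like each called member. Others, among them E2f8, Bub1, Cdkn2b, Cdkn3, Fos, E2f4, Mdm4, Atm, Atr, Plk2, Ly6a, Pdgfra, Dcn, Lum, Col3a1, Sdc4, Heyl, Lyz2, Cd68, Hbb-bs, Bax, Bbc3 and Pmaip1, were chosen after their values were seen. The limma fit was tested on simulated data with known changes.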

Additional observations from a re-analysis of the deposited data

How the results depend on the processing

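Scaling, filter, pseudocount, variance prior, weighting, block and libraries were changed 1 at a time, and centring along GC content was added after seeing the data. The number of members called in mdx against control (4 as reported) was 2 with no minimum mean, 1 with one prior variance, and 2 to 5 with a library left out. In Sirt6mKO/mdx against mdx (4 as reported) it was 1 with total counts, 0 with no minimum mean, 0 with one prior variance (5 and 4 members at an unadjusted p under 0.05 in limma, and 0 calls over all genes), 1 with GC centring and 0 to 4 with a library left out. In Sirt6mKO/mdx against control (2 as reported) it was 0 with no minimum mean, 0 with one prior variance (6 and 4 members at an unadjusted p under 0.05 in limma), 4 with a robust prior variance, 4 with the replicate block, 1 with only the 2 groups compared and 0 to 3 with a library left out. Other settings kept each count within 1.5 times, though not the members behind it: with total counts Sirt6mKO/mdx against control gained Cdkn1a and Cdkn2a and lost Cdkn2d, and in mdx against control voom lost Cdkn2a and GC centring lost Trp53. Cdkn2c lost its call against mdx with a pseudocount of 0.1 and with upper quartile scaling, and gained one against control with voom, with the replicate block, with a robust prior variance (as did Cdkn2a) and with a minimum mean of 50, which leaves Cdkn2a untested. In mdx against control, no minimum mean lost Cdkn2a and Trp53, and one prior variance lost Cdkn1a too. The causes were not tested. Total counts moved the share of higher calls over all genes from 68.8% to 14% in Sirt6mKO/mdx against mdx and from 65.9% to 14.5% in Sirt6mKO/mdx against control.

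Deviations of same-numbered libraries had an r of 0.22 for control with Sirt6mKO/mdx, but of -0.0445 for control with mdx and 0.0482 for mdx with Sirt6mKO/mdx over 9666 genes, and no source ties the numbers to a shared animal or day, so the libraries were taken as unpaired. The replicate block gave 4, 4 and 4 called members, adding Cdkn2a and Cdkn2c in Sirt6mKO/mdx against control.

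Signs also turned, each time for a value that was not called. With upper quartile scaling, voom and GC centring, Cdkn2c in mdx against control was 0.039, 0.028 and 0.18, and Cdkn2d was 0.052, 0.024 and 0.19, while GC centring gave Cdkn1b -0.13. With a library left out, values in mdx against control ran from -0.085 to 0.38 for Cdkn1b, from -0.51 to 0.41 for Cdkn2c and from -0.26 to 0.19 for Cdkn2d. Between Sirt6mKO/mdx and mdx, total counts gave Cdkn1b -0.27 and Mdm2 -0.081, and GC centring gave Rb1 0.12. There the values with a library left out ran from -2.11 to 0.23 for Cdkn2a, from -0.20 to 0.16 for Trp53 and from -0.25 to 0.091 for Rb1. Between Sirt6mKO/mdx and control, total counts gave Cdkn1b -0.10 and Rbl2 -0.57, and left-out libraries gave -0.28 to 0.030 for Mdm2 and -0.088 to 0.16 for Rbl2.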
